A study of Mus musculus with 103 samples.

Results

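The solute carrier genes described here are the rows of the deposited table whose symbol starts with Slc and a family number, with Slc2a3 left out, and they were chosen by name, not by their values. They number 110 of 7894 genes and fall in 38 families. Of these, 17 belong to amino acid families, 4 to sugars and polyols, 29 to inorganic ions, 25 to the mitochondrial Slc25 family and 32 to other substrates such as vitamins, monocarboxylates, nucleosides and nucleotide sugars. The remaining 3 carry an Slc symbol without being carriers: Slc4a1ap, Slc7a6os and Slc9a3r1 are named for a neighbour or binding partner, and they were kept as a class of their own.

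Messenger RNA was measured in single FVB mouse embryos at the 2-cell stage, collected 28 hours after intracytoplasmic sperm injection (ICSI), in which a sperm or a sperm head is placed directly in the oocyte. All oocytes came from females on the Control diet. Whole sperm gave 12 embryos from the rete testis, the network through which sperm exit the testis, and 9 from the cauda epididymis, the storage site of mature sperm. The file header lists the males of both as Control fed. Rete sperm heads gave 23 embryos from males on the Low Protein (LP) diet and 22 from Control males. Cauda sperm heads gave 17 embryos from LP males and 20 from Control males. Which male sired an embryo, and when it was made, is not in the labels, and p-values below therefore measure only the spread between these embryos. One label tag mentions in vitro fertilization, whereas the protocols describe ICSI for all embryos.

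Solute carriers are membrane proteins that move small molecules by exchange, by facilitated passage or by coupling to a sodium or proton gradient, and the Slc25 family does this across the inner mitochondrial membrane. Cleavage-stage mouse embryos are known to take up amino acids both for metabolism and as osmolytes, glycine through the Slc6a9 protein among them, and mouse oocytes are known to take in zinc as they mature. The mouse embryo also changes from stored maternal transcripts to its own transcripts around the 2-cell stage. A library here is a whole embryo, and a level is a share of its reads, so less of one transcript and more of all the others cannot be told apart.

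Values are CPM as deposited, the counts of a gene scaled to a common total per embryo, and the tests used limma on log2(CPM + 1). A gene counts as past the threshold at a Benjamini-Hochberg adjusted p under 0.05 over all genes. Depth ran from 529863 to 6058308 reads per embryo, with group medians of 2806572 and 4091157 in rete and cauda whole-sperm embryos and from 1056545 to 1197679 in the 4 head groups. Embryos low in detected genes were rete LP head embryo 11 with 6095 genes, cauda whole-sperm embryo 5 with 6696 and cauda Control head embryo 19 with 7244. Embryos were also placed on a ribosome-maternal index, the mean log2(CPM + 1) of 85 ribosome biogenesis genes minus that of 66 genes known from oocytes; no solute carrier gene is in either list. Its group medians were −3.00 and −3.50 in rete and cauda whole-sperm embryos, −0.01 in rete LP heads, −0.98 in rete Control heads, 0.19 in cauda LP heads and −0.13 in cauda Control heads. The ranges were −4.16 to −1.56 and −4.82 to −1.76 in rete and cauda whole-sperm embryos, and over the head groups they reached from −4.99 to 2.02. The head embryos therefore covered the index range of the whole-sperm embryos and went well above it. Of the lists of other cells' markers, cumulus markers had 3 of 17 in the table, sperm transcripts 2 of 14, epididymis 1 of 11 and testicular somatic cells 1 of 10.

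Levels were first set beside each other per kilobase of RefSeq transcript. The mean over all embryos ran from 1.20 to 329.5 CPM per kb, with a median of 13.1 over the 110 genes, and 8 genes reached 100 CPM per kb or more. In 37 genes every embryo had at least 1 CPM, and the least often detected gene reached that level in 73.8% of embryos. The class medians of the mean level were 8.97 CPM per kb for amino acids, 11.8 for sugars, 9.80 for ions, 18.3 for mitochondrial carriers and 11.2 for other substrates. The classes overlapped over nearly their whole ranges.

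The most abundant was Slc34a2, a sodium-coupled phosphate importer, at 329.5 CPM per kb. Next came Slc19a3, a thiamine importer, at 309 CPM per kb, and Slc45a3, a proton-coupled carrier of the sugar group, at 201 CPM per kb. Slc5a6, the sodium-coupled importer of biotin and pantothenate, reached 195 CPM per kb, although its exons overlap those of Atraid on the opposite strand and the use of strand is not given in the sources used here. Slc16a6, of the monocarboxylate family, reached 119 CPM per kb and overlaps Amz2 in the same way. Among mitochondrial carriers Slc25a3, the phosphate carrier that feeds ATP synthesis, led with 165 CPM per kb. It was followed by Slc25a44, a carrier of branched-chain amino acids, with 145, and by Slc25a5, an ADP/ATP exchanger, with 91.1. The amino acid class was led by Slc3a2, the shared heavy chain of several exchangers, at 83.6 CPM per kb, then by Slc7a14, a lysosomal member of the cationic amino acid family, at 61.3, and by the glycine importer Slc6a9 at 50.5. Slc2a1, the facilitated glucose carrier, was low, at 7.64 CPM per kb. Slc37a3, of the sugar phosphate family, had 16.02 CPM per kb.

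The zinc carriers were many and of unequal level. Slc30a3, which exports zinc from the cytosol into vesicles, averaged 93.9 CPM per kb, and the importer Slc39a6 averaged 58.4. Slc39a10, the partner of Slc39a6 and singled out after its values were seen, averaged 52.5 CPM per kb. The importers Slc39a4 and Slc39a1 averaged 30.9 and 8.36, and the exporters Slc30a5, Slc30a6 and Slc30a1 averaged 19.95, 19.5 and 10.2 CPM per kb.

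Summed over all 110 genes, the medians were 11188 and 11279 CPM in rete and cauda whole-sperm embryos, 12378 and 11758 CPM in rete LP and rete Control heads, and 13522 and 12499 CPM in cauda LP and cauda Control heads. The group ranges of this sum overlapped. The classes did not move together. The 4 sugar genes summed to a median of 2472 CPM in cauda whole-sperm embryos, against 408 CPM in cauda Control heads, and Slc45a3 alone had medians of 2297 and 308 CPM there. The 32 genes of other substrates summed to 2092 CPM in cauda whole-sperm embryos, against 4177 CPM in cauda Control heads. These sums are descriptions, without a test.

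**Figure D1:**
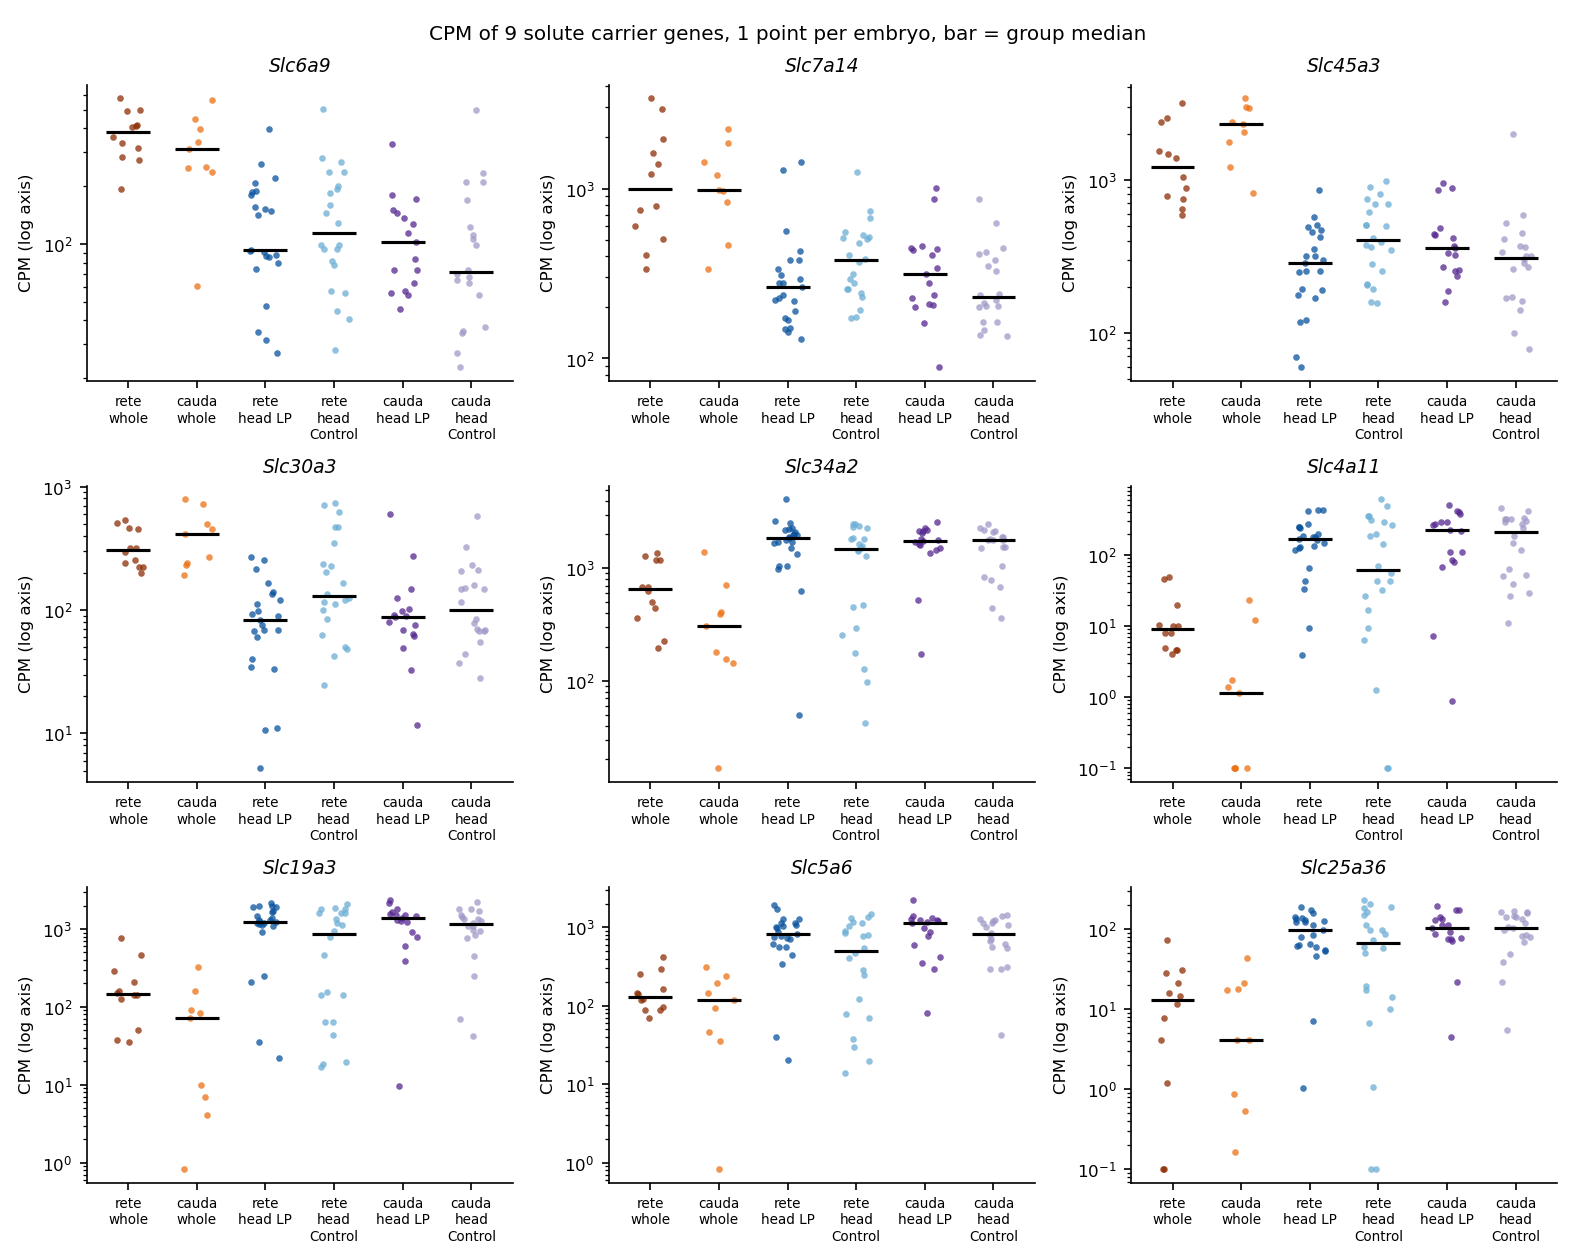
CPM on a log axis of 9 solute carrier genes in the 6 groups, 1 point per embryo, with a bar at the group median; a value of 0.1 stands for zero reads. Slc6a9, Slc7a14, Slc45a3 and Slc30a3 have higher medians in both whole-sperm groups than in every head group, and Slc34a2, Slc4a11, Slc19a3, Slc5a6 and Slc25a36 have lower ones.

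The contrast that touched most solute carrier genes was whole sperm against heads from Control males. For cauda sperm, 31 genes were higher and 36 lower in whole-sperm embryos, 67 of 110, while 58.7% of all genes tested passed the same threshold (24.4% higher and 34.3% lower). For rete sperm, 21 were higher and 17 lower, 38 of 110, against 33.6% of all genes (14.1% higher and 19.5% lower). The share of solute carrier genes was thus close to that of all genes in both. Their median difference was 0.29 on the log2(CPM + 1) scale for cauda sperm and 0.22 for rete sperm, against −0.08 and 0.03 over all genes. Of the genes higher with whole sperm, 17 were shared, 54.8% of the cauda list and 81.0% of the rete list, and all 17 genes lower for rete sperm were among the 36 for cauda sperm (47.2%). No gene passed in opposite directions.

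The preparations differed in more than the injected sperm. Whole-sperm embryos were sequenced more deeply, had a lower index and, for the cauda, carry another location code in the file header (CA, against CA2 for heads). With depth as a covariate 40 genes were higher and 29 lower for cauda sperm (53.7% of all genes), and 30 higher and 10 lower for rete sperm (33.5% of all genes). With the index as a covariate 9 were higher and 2 lower for cauda sperm (8.12% of all genes), and 12 higher and none lower for rete sperm (9.91% of all genes). Of the 67 cauda calls 8 were kept in that fit, those of Slc45a3, Slc7a14, Slc3a2, Slc35a4, Slc4a11, Slc6a7, Slc1a7 and Slc48a1. Of the 38 rete calls 7 were kept, among them those of Slc45a3, Slc7a14, Slc6a9, Slc37a3, Slc35c2 and Slc1a7. Every other preparation call given below was lost with the index. Scaling by median-of-ratios moved the median of all genes from −0.08 to 0.12 for cauda sperm and gave 43 higher and 34 lower. The share of all genes under this scaling is not given here, so these counts are not read as particular to solute carrier genes. Gata4, the only testicular somatic marker in the table, had medians of 101 CPM (37.4 to 233) in rete and 94.3 CPM (2.81 to 219) in cauda whole-sperm embryos, against 254 CPM (11.8 to 742) in rete and 318 CPM (9.55 to 761) in cauda Control heads. It was lower with cauda whole sperm (−1.75 on the log2 scale) and did not pass for rete sperm (−0.73). Within the preparations Gata4 rose along the index by limma. Its slope was 0.83 log2 CPM per unit in head embryos (adjusted p = 3.21e-14) and 0.89 in whole-sperm embryos (adjusted p = 0.0133). Of the 3 cumulus markers, Amhr2, Gja1 and Serpine2, 2 were lower and 1 higher with cauda whole sperm, from −4.18 to 1.94, and none passed for rete sperm. Their summed level had medians of 197 CPM (101 to 294) in rete and 226 CPM (91.9 to 586) in cauda whole-sperm embryos, against 252 CPM (132.9 to 446) in rete and 295 CPM (111.6 to 401) in cauda Control heads. Of the sperm transcripts Odf2 and Ldhc, 1 was lower with cauda whole sperm (−2.85) and none passed for rete sperm. They summed to 376 CPM (166 to 795) in rete and 214 CPM (92.2 to 391) in cauda whole-sperm embryos, against 279 CPM (132.3 to 490.2) in rete and 288 CPM (120.8 to 679) in cauda Control heads. The epididymis marker Aqp9 did not pass in either. The part of these markers in the differences was not tested. Whether both preparations were made on the same days is not given in the sources used here, and preparation and day cannot be told apart.

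Of the 17 amino acid genes, 7 were higher and 5 lower with whole cauda sperm, and 4 were higher and none lower with whole rete sperm. Slc6a9 ran from 193 to 577 CPM with a median of 385 in rete whole-sperm embryos, against 27.9 to 508 with a median of 114 in rete Control heads. In cauda whole-sperm embryos it ran from 60.1 to 565 CPM with a median of 313, against 22.8 to 501 with a median of 71.8 in cauda Control heads. The groups overlapped, and 12 of 12 rete and 8 of 9 cauda whole-sperm embryos lay above the median of their head group. By limma the log2 difference was 1.62 ± 0.34 (SE, adjusted p = 0.000199) for rete sperm and 1.71 ± 0.38 (adjusted p = 7.67e-05) for cauda sperm. Exons of Slc6a9 overlap B4galt2 on the opposite strand. Slc7a14 had a median of 999 CPM (336 to 3409) in rete whole-sperm embryos, against 378 (172 to 1243) in rete Control heads. In cauda whole-sperm embryos its median was 978 CPM (335 to 2247), against 229 (135 to 863) in cauda Control heads. The groups overlapped, and its differences were 1.45 ± 0.30 for rete (adjusted p = 0.000200) and 1.89 ± 0.34 for cauda sperm (adjusted p = 1.94e-06).

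Slc6a15, an importer of branched-chain amino acids, rose by 1.11 ± 0.37 with rete and 1.43 ± 0.42 with cauda whole sperm (adjusted p = 0.0167 and 0.00256). Slc6a7, the proline importer, had medians of 34.01 CPM in cauda whole-sperm embryos and 4.56 CPM in cauda Control heads, a difference of 2.52 ± 0.55 (adjusted p = 6.05e-05), and 19.8 CPM in rete whole-sperm embryos against 11.2 CPM in rete Control heads (0.58 ± 0.49, adjusted p = 0.351). Slc1a1, an importer of glutamate and aspartate, had a median of 27.6 CPM (0.33 to 59.7) in cauda whole-sperm embryos, against 184 (46.3 to 429) in cauda Control heads, a difference of −3.02 ± 0.65 (adjusted p = 5.00e-05). Slc1a5, an exchanger of glutamine and other neutral amino acids, had 15.1 CPM (0.1 to 43.4) in cauda whole-sperm embryos, against 95.8 (0.1 to 186) in cauda Control heads, where 0.1 is the value written for zero. Its difference was −2.75 ± 0.63 (adjusted p = 0.000140). Neither passed for rete sperm, with −0.9996 ± 0.58 (adjusted p = 0.167) and −0.83 ± 0.56 (adjusted p = 0.241). Slc3a2 was lower with cauda whole sperm (−0.59 ± 0.22, adjusted p = 0.0179), and its rete difference was 0.04 ± 0.20 (adjusted p = 0.897).

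Among the 4 sugar genes Slc45a3 had the largest rise with cauda whole sperm of all 110 genes. It ran from 815 to 3414 CPM with a median of 2297 in cauda whole-sperm embryos, against 78.5 to 1995 with a median of 308 in cauda Control heads. In rete whole-sperm embryos it ran from 588 to 3179 CPM with a median of 1208, against 157 to 984 with a median of 404 in rete Control heads. Every whole-sperm embryo lay above the median of its head group, with overlap at the edges. The differences were 2.81 ± 0.34 for cauda (adjusted p = 2.21e-10) and 1.60 ± 0.31 for rete sperm (adjusted p = 5.88e-05). With the index as a covariate they were 1.79 ± 0.35 (adjusted p = 0.000913) and 1.12 ± 0.28 (adjusted p = 0.00465). Slc2a1 had medians of 40.5 CPM in cauda whole-sperm embryos and 12.2 CPM in cauda Control heads (1.87 ± 0.75, adjusted p = 0.0258), and of 56.8 CPM in rete whole-sperm embryos and 21.96 CPM in rete Control heads (1.07 ± 0.67, adjusted p = 0.201). Slc37a3 rose with rete whole sperm by 0.95 ± 0.32 (adjusted p = 0.0179). Slc5a3, a myo-inositol importer whose exons overlap Mrps6 on the same strand, was lower with cauda whole sperm (−1.75 ± 0.61, adjusted p = 0.0109).

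The 29 ion genes split 7 higher and 9 lower for cauda and 6 higher and 7 lower for rete sperm. Slc4a11, of the bicarbonate family, had the largest difference of all members. It ran from 0.1 to 23.4 CPM with a median of 1.16 in cauda whole-sperm embryos, against 10.9 to 459 with a median of 211 in cauda Control heads, and 4 of the 9 whole-sperm embryos held the value written for zero. In rete whole-sperm embryos it ran from 4.01 to 49.5 CPM with a median of 9.03, against 0.1 to 614 with a median of 62.3 in rete Control heads. The differences on the log2(CPM + 1) scale were −5.64 ± 0.76 (adjusted p = 2.74e-09) and −2.23 ± 0.68 (adjusted p = 0.00928). Slc34a2 had a median of 304 CPM (16.7 to 1392) in cauda whole-sperm embryos, against 1778 (359 to 2457) in cauda Control heads, a difference of −2.47 ± 0.50 (adjusted p = 1.76e-05). In rete whole-sperm embryos the median was 657 CPM (194 to 1364), against 1490.1 (42.0 to 2489) in rete Control heads, where the difference was −0.40 ± 0.45 (adjusted p = 0.497). Slc20a1, another phosphate importer, went the other way, with 1.66 ± 0.42 for cauda (adjusted p = 0.000580) and 1.14 ± 0.38 for rete sperm (adjusted p = 0.0162). Slc12a2, a sodium-potassium-chloride importer, was the only solute carrier gene whose cauda groups did not overlap, with 1.22 to 37.0 CPM in whole-sperm embryos and 38.3 to 279.9 CPM in Control heads. Such separation was seen in 0.545% of all genes, and Slc12a2 was singled out after its values were seen.

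Zinc carriers moved in both directions. Slc30a3 had medians of 307 and 414 CPM in rete and cauda whole-sperm embryos, against 129.7 and 100.2 CPM in rete and cauda Control heads, and 12 of 12 and 9 of 9 embryos lay above those medians. Its differences were 1.02 ± 0.41 (adjusted p = 0.0457) and 1.80 ± 0.46 (adjusted p = 0.000608). Slc39a6 rose with rete whole sperm by 0.65 ± 0.21 (adjusted p = 0.0142) and with cauda whole sperm by 0.67 ± 0.24 (adjusted p = 0.0119). By contrast Slc39a4 had medians of 7.24 and 3.47 CPM in rete and cauda whole-sperm embryos, against 38.7 and 129 CPM in the Control heads, and fell by 2.22 ± 0.60 (adjusted p = 0.00333) and fell by 4.13 ± 0.67 (adjusted p = 1.98e-07) on the log2 scale. Slc30a6 fell by 1.85 ± 0.62 (adjusted p = 0.0160) and 3.84 ± 0.69 (adjusted p = 1.86e-06). Slc30a5 and Slc39a9 were also lower in both, with −1.57 ± 0.50 and −1.60 ± 0.60 for rete sperm, but neither rete call held with depth as a covariate (adjusted p = 0.0620 and 0.143). Slc41a1, a magnesium carrier, rose by 1.41 ± 0.50 with rete and 2.18 ± 0.55 with cauda whole sperm (adjusted p = 0.0224 and 0.000536). Slc24a3, a sodium-calcium-potassium exchanger, rose with rete whole sperm by 1.34 ± 0.46 (adjusted p = 0.0185). Slc4a5, a sodium bicarbonate carrier of low level, rose with cauda whole sperm by 2.23 ± 0.58 (adjusted p = 0.000717), and with the index as a covariate its difference was 0.09 ± 0.56 (adjusted p = 0.952).

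Of the 25 mitochondrial genes, 6 were higher and 11 lower for cauda sperm, 24% and 44%, where 24.4% and 34.3% of all genes were. For rete sperm 2 were higher and 6 lower, 8% and 24%, where 14.1% and 19.5% of all genes were. Their median difference was −0.40 for cauda and −0.07 for rete sperm, against −0.08 and 0.03 over all genes. Slc25a36, a pyrimidine nucleotide carrier as known for the human protein, ran from 0.165 to 43.4 CPM with a median of 4.16 in cauda whole-sperm embryos, against 5.47 to 165 with a median of 102.9 in cauda Control heads. In rete whole-sperm embryos it ran from 0.1 to 72.2 CPM with a median of 13.05, against 0.1 to 229 with a median of 66.6 in rete Control heads. It fell by 3.65 ± 0.67 (adjusted p = 3.41e-06) and by 2.00 ± 0.60 (adjusted p = 0.00837) on the log2 scale. Slc25a44 fell by 2.17 ± 0.46 for cauda (adjusted p = 4.00e-05) and by 1.07 ± 0.41 for rete sperm (adjusted p = 0.0362). Slc25a3 had medians of 63.4 CPM in cauda whole-sperm embryos and 383 CPM in cauda Control heads, a difference of −1.92 ± 0.47 (adjusted p = 0.000395).

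Other members of the Slc25 family were higher. Slc25a15, the ornithine carrier of the urea cycle, had medians of 205 and 281 CPM in rete and cauda whole-sperm embryos, against 85.1 and 74.97 CPM in the Control heads, and rose by 1.13 ± 0.30 (adjusted p = 0.00347) and 1.63 ± 0.34 (adjusted p = 3.24e-05). Slc25a48 rose by 1.29 ± 0.37 (adjusted p = 0.00618) and 2.03 ± 0.42 (adjusted p = 2.48e-05). Slc25a1, the citrate exporter, rose with cauda whole sperm by 2.22 ± 0.65 (adjusted p = 0.00234), and with the index as a covariate its difference was 0.08 ± 0.64 (adjusted p = 0.961). Slc25a5 did not pass in either, with −0.34 ± 0.30 for rete (adjusted p = 0.390) and −0.58 ± 0.34 for cauda sperm (adjusted p = 0.131).

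Of the 32 genes for other substrates, 8 were higher and 9 lower for cauda, and 5 higher and 3 lower for rete sperm. Slc19a3 ran from 0.825 to 323 CPM with a median of 72.5 in cauda whole-sperm embryos, against 41.9 to 2252 with a median of 1150.1 in cauda Control heads, a difference of −4.73 ± 0.75 (adjusted p = 1.19e-07). In rete whole-sperm embryos it ran from 35.4 to 766 CPM with a median of 146, against 17.1 to 2115 with a median of 866 in rete Control heads, which did not pass (−1.29 ± 0.67, adjusted p = 0.123). The rete Control heads thus spread beyond the range of the rete whole-sperm embryos at both ends. Slc5a6 had a median of 118 CPM (0.825 to 310.4) in cauda whole-sperm embryos, against 816 (41.9 to 1439) in cauda Control heads, a difference of −3.16 ± 0.61 (adjusted p = 9.26e-06). With the index as a covariate the difference was 0.09 ± 0.39 (adjusted p = 0.923). Slc29a2, a nucleoside carrier, fell by 3.93 ± 0.76 for cauda (adjusted p = 8.18e-06) and fell by 1.76 ± 0.68 for rete sperm (adjusted p = 0.0369). Its rete call was lost with a pseudocount of 0.1 (−2.05, adjusted p = 0.0667), with only the 2 groups in the fit (−1.76, adjusted p = 0.106) and with the index (−0.28, adjusted p = 0.784). Slc33a1, the acetyl-CoA carrier of the endoplasmic reticulum, fell by 2.01 ± 0.53 for rete (adjusted p = 0.00308) and fell by 3.39 ± 0.60 for cauda sperm (adjusted p = 1.30e-06).

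Some members of the nucleotide sugar family and the haem carrier Slc48a1 were higher instead. The family was split, as read after the values were seen. For Slc35b1, Slc35e2 and Slc35f2 all 9 cauda whole-sperm embryos lay below the median of the cauda Control heads. Slc35a4 had medians of 386 CPM (332 to 601) in cauda whole-sperm embryos and 79.0 CPM (13.8 to 343) in cauda Control heads, and rose by 2.37 ± 0.38 (adjusted p = 1.96e-07) and, for rete sperm, by 0.98 ± 0.34 (adjusted p = 0.0214). Slc35f6 rose with cauda whole sperm by 2.66 ± 0.68 (adjusted p = 0.000543). Slc35c2 rose by 1.33 ± 0.38 for rete (adjusted p = 0.00578) and by 1.06 ± 0.43 for cauda sperm (adjusted p = 0.0266). Slc48a1 rose by 1.36 ± 0.50 (adjusted p = 0.0298) and 2.57 ± 0.56 (adjusted p = 6.68e-05), and its rete call was lost with a pseudocount of 0.1 (1.84, adjusted p = 0.0643) and with the index (1.06, adjusted p = 0.181). Of the 3 symbols that are no carriers, Slc7a6os, the most abundant of them at 75.3 CPM per kb, fell by 0.98 ± 0.27 for rete (adjusted p = 0.00448) and 1.81 ± 0.30 for cauda sperm (adjusted p = 4.79e-07). Slc9a3r1, a scaffold protein, rose by 1.56 ± 0.49 for rete sperm (adjusted p = 0.0114), and Slc4a1ap, which overlaps Supt7l, rose by 0.95 ± 0.30 for rete (adjusted p = 0.0115) and 0.85 ± 0.33 for cauda sperm (adjusted p = 0.0237).

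**Figure D2:**
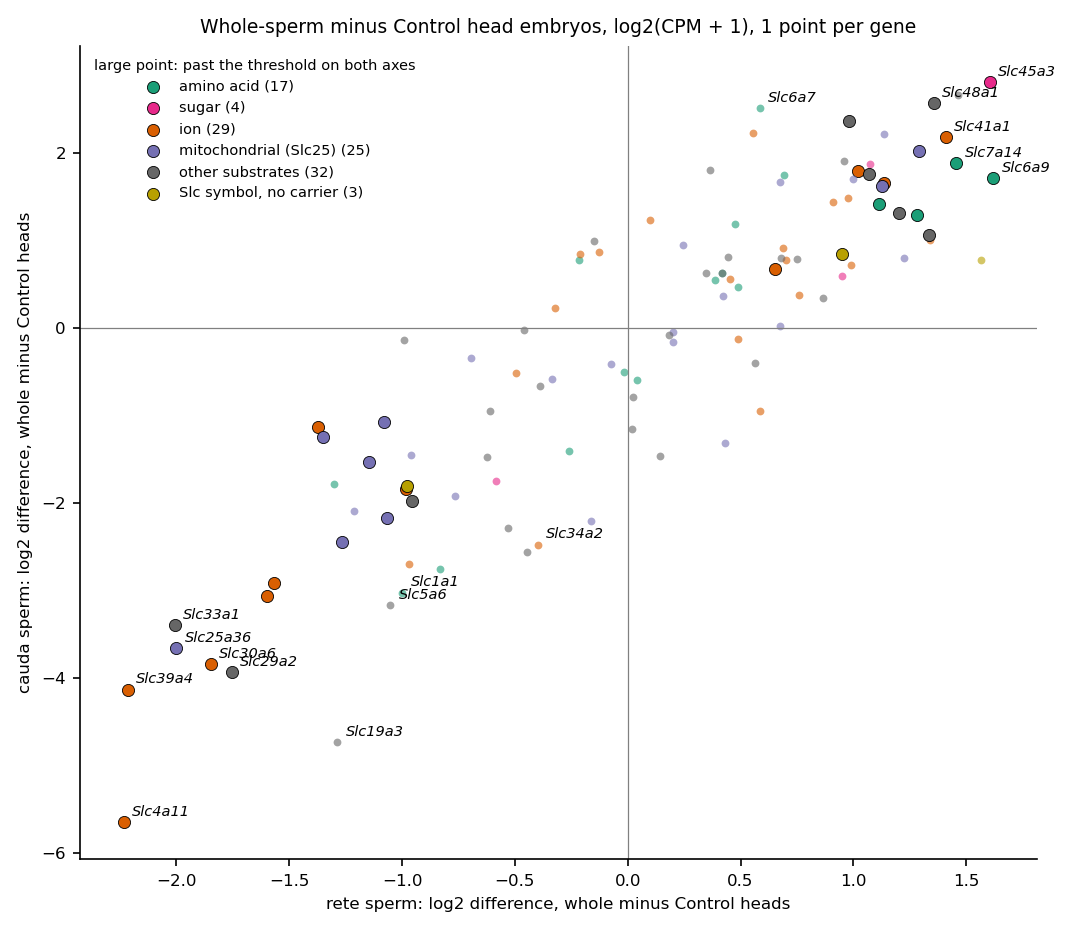
Difference between whole-sperm and Control head embryos on the log2(CPM + 1) scale for rete sperm (x axis) and cauda sperm (y axis), 1 point per solute carrier gene, coloured by class, with large outlined points for genes past the threshold on both axes. No outlined gene lies in an off-diagonal quadrant, Slc4a11 lies lowest on both axes, and Slc45a3 lies highest on the cauda axis.

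A test of whether the whole-minus-head difference itself depended on the sperm source found no solute carrier gene past the threshold, against 0.861% of all genes (0.836% with a higher and 0.0253% with a lower difference for rete sperm). At an unadjusted p under 0.05 there were 24 of 110 solute carrier genes, beside 1410 of 7894. The smallest adjusted p-values by limma were 0.0603 for Slc19a3, with a rete-minus-cauda difference of 3.44 ± 1.00 and 0.0684 for Slc4a11, with 3.41 ± 1.02. Both passed with a pseudocount of 0.1, at 3.62 (adjusted p = 0.0468) for Slc19a3 and 4.86 (adjusted p = 0.0268) for Slc4a11. The mitochondrial gene of smallest p was Slc25a28, an iron carrier, with 1.74 ± 0.60 (adjusted p = 0.107).

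Within a preparation, solute carrier genes followed the ribosome-maternal index. In the 82 head embryos, fitted with the 4 groups as terms, 47 genes rose and 31 fell along the index, 78 of 110, and 74% of all genes did so (41.9% rose and 32.2% fell). In the 21 whole-sperm embryos, 20 of 109 rose and 3 fell, against 18.1% of all genes (14.2% and 3.92%); Slc33a1 did not pass the filter there. The median slope of the members was 0.05 in head and 0.16 in whole-sperm embryos, in log2 CPM per unit of index, against 0.05 and 0.11 over all genes. In both sets the share is near that of all genes. Of the named slopes in whole-sperm embryos, 10 were lost with the number of detected genes in the fit and 10 with the maternal list alone in place of the index. Those of Slc4a11, Slc19a3, Slc1a5, Slc5a6, Slc25a10, Slc25a25, Slc25a15, Slc20a1 and Slc29a2 were lost in both. The slope of Slc5a3 was lost only with detected genes and that of Slc39a1 only with the maternal list. Slc25a36 and Slc35a1 kept theirs in both. The 2 sets share no embryo: 18 of the genes that rose in heads were among the 20 in whole-sperm embryos, and 2 of those that fell were among the 3. Of the 47 that rose in heads, 46 were tested in whole-sperm embryos and 43 had a positive slope there, while of the 31 that fell, 19 had a negative slope there. Of all genes tested in whole-sperm embryos, 60.2% had a positive slope. The same overlaps over all genes are not given here, so these counts are not read as particular to solute carrier genes.

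By class, 6 amino acid genes rose and 5 fell along the index in heads, 12 ion genes rose and 10 fell, 14 mitochondrial genes rose and 5 fell, 1 sugar gene rose and 2 fell, and 13 of the other substrates rose and 9 fell. Slc4a11 had the steepest slope in heads, 1.25 ± 0.08 (SE, adjusted p = 2.39e-26), and 1.19 ± 0.28 in whole-sperm embryos (adjusted p = 0.00414). Slc19a3 had 1.08 ± 0.08 (adjusted p = 4.25e-21) and 1.58 ± 0.32 (adjusted p = 0.00145), and Slc25a36 had 0.99 ± 0.07 (adjusted p = 3.86e-24) and 1.74 ± 0.33 (adjusted p = 0.000771). For these 3 genes the rank correlation with the index was positive within each of the 6 groups, from 0.538 to 0.886 for Slc4a11, from 0.355 to 0.853 for Slc19a3 and from 0.708 to 0.918 for Slc25a36, as a description over the 9 to 23 embryos of a group, whose index and level come from the same library. Slc5a6 had slopes of 0.98 ± 0.05 in heads and 1.12 ± 0.29 in whole-sperm embryos (adjusted p = 5.66e-29 and 0.00799), and in whole-sperm embryos 0.27 ± 0.23 with detected genes as a covariate (adjusted p = 0.512). Slc30a6 had 1.07 ± 0.07 in heads (adjusted p = 3.73e-24) and 0.74 ± 0.38 in whole-sperm embryos (adjusted p = 0.179). Slc1a5 had 0.90 ± 0.07 and 1.28 ± 0.32 (adjusted p = 1.93e-20 and 0.00578).

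Further genes that rose in heads were Slc35e2 (0.98 ± 0.07), Slc39a4 (0.97 ± 0.08), Slc29a2 (0.92 ± 0.10) and Slc1a1 (0.92 ± 0.08). In whole-sperm embryos Slc25a10, the dicarboxylate carrier, rose by 1.57 ± 0.35 per unit (adjusted p = 0.00284), Slc39a1 by 1.55 ± 0.28 (adjusted p = 0.000575), Slc5a3 by 1.44 ± 0.35 (adjusted p = 0.00470) and Slc25a25, an ATP-magnesium/phosphate carrier that overlaps Naif1, by 1.33 ± 0.25 (adjusted p = 0.000833).

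On the other side, Slc2a1 had the steepest negative slope in heads, −0.76 ± 0.13 (adjusted p = 9.86e-08), followed by Slc25a1 at −0.72 ± 0.11 (adjusted p = 7.21e-09) and Slc4a5 at −0.69 ± 0.10 (adjusted p = 6.45e-10). Slc4a8, Slc30a3, Slc25a48, Slc35f6, Slc26a9 and Slc6a9 fell by 0.66 to 0.47 per unit. In whole-sperm embryos the slope of Slc6a9 was 0.19 ± 0.17 (adjusted p = 0.489) and that of Slc30a3 −0.17 ± 0.16 (adjusted p = 0.489). Slc25a15 fell in both, by 0.47 ± 0.05 in heads (adjusted p = 8.94e-15) and by 0.41 ± 0.13 in whole-sperm embryos (adjusted p = 0.0303), and so did Slc20a1, by 0.36 ± 0.08 (adjusted p = 3.85e-05) and 0.43 ± 0.14 (adjusted p = 0.0293). Both whole-sperm slopes were lost with detected genes as a covariate (−0.37, adjusted p = 0.153 for Slc25a15, and −0.50, adjusted p = 0.0649 for Slc20a1) and with the maternal list alone (−0.80, adjusted p = 0.206, and −0.73, adjusted p = 0.280). Slc35a1, the CMP-sialic acid carrier, had −1.30 ± 0.29 (adjusted p = 0.00290) in whole-sperm embryos and −0.23 ± 0.12 in heads (adjusted p = 0.0732), so it passed in the whole-sperm embryos alone; the difference between the slopes was not tested.

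The preparation fit with the index as a covariate uses the same Control head embryos as the head slopes. Few cauda Control head embryos lay in the index range of the cauda whole-sperm embryos. The adjusted cauda differences therefore rely on a fitted line that the other groups also set. With the index as a covariate Slc4a11 kept a difference for cauda sperm (−1.54 ± 0.47, adjusted p = 0.0275), as did Slc6a7 (1.92 ± 0.63, adjusted p = 0.0412), Slc48a1 (1.95 ± 0.65, adjusted p = 0.0437) and Slc35a4 (1.27 ± 0.40, adjusted p = 0.0302). For rete sperm Slc6a9 (0.96 ± 0.29, adjusted p = 0.0181), Slc7a14 (1.07 ± 0.29, adjusted p = 0.00951) and Slc35c2 (1.18 ± 0.39, adjusted p = 0.0387) kept theirs. Slc25a36 had −0.19 ± 0.46 for cauda (adjusted p = 0.854) and −0.36 ± 0.37 for rete sperm (adjusted p = 0.576) in that fit.

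**Figure D3:**
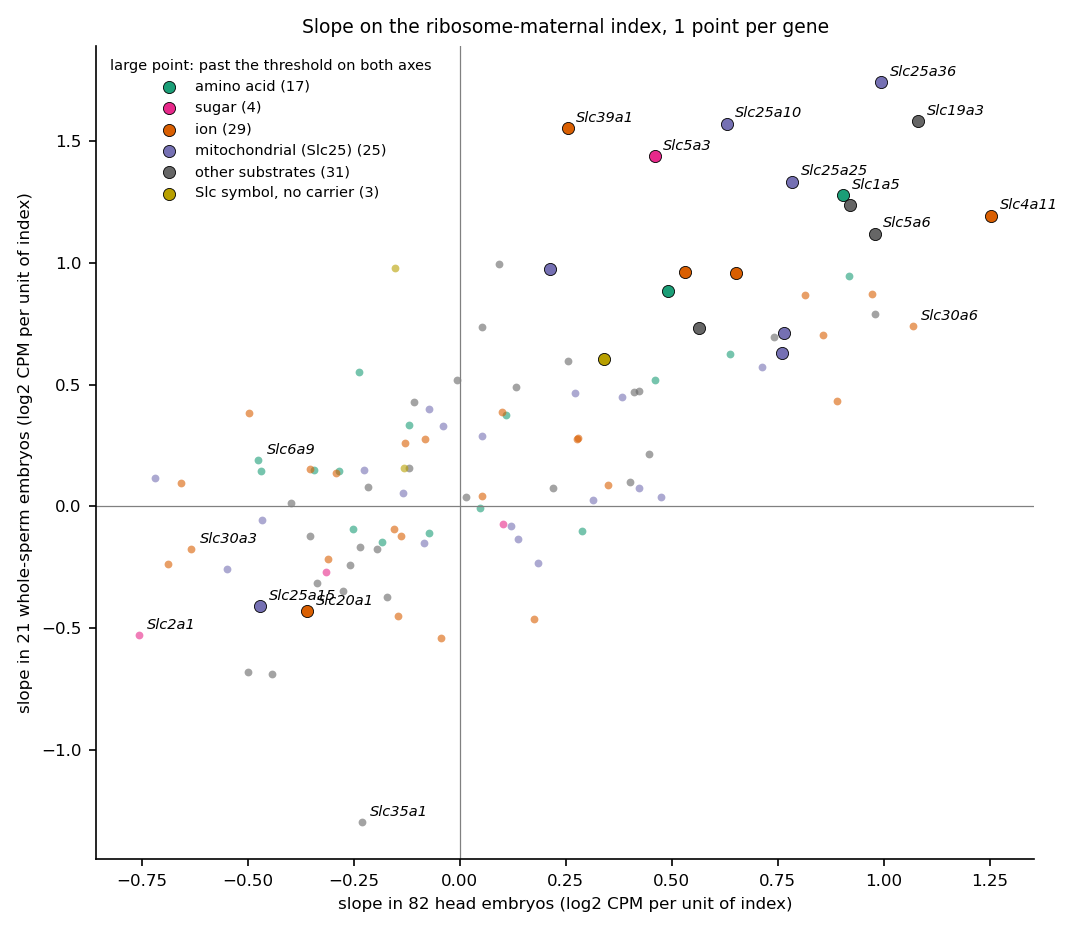
Slope on the ribosome-maternal index in 82 head embryos (x axis) and 21 whole-sperm embryos (y axis), in log2 CPM per unit of index, 1 point per solute carrier gene, coloured by class, with large outlined points past the threshold in both sets. Outlined genes lie at the upper right, among them Slc25a36 and Slc19a3, and Slc25a15 and Slc20a1 lie at the lower left.

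**Figure D4:**
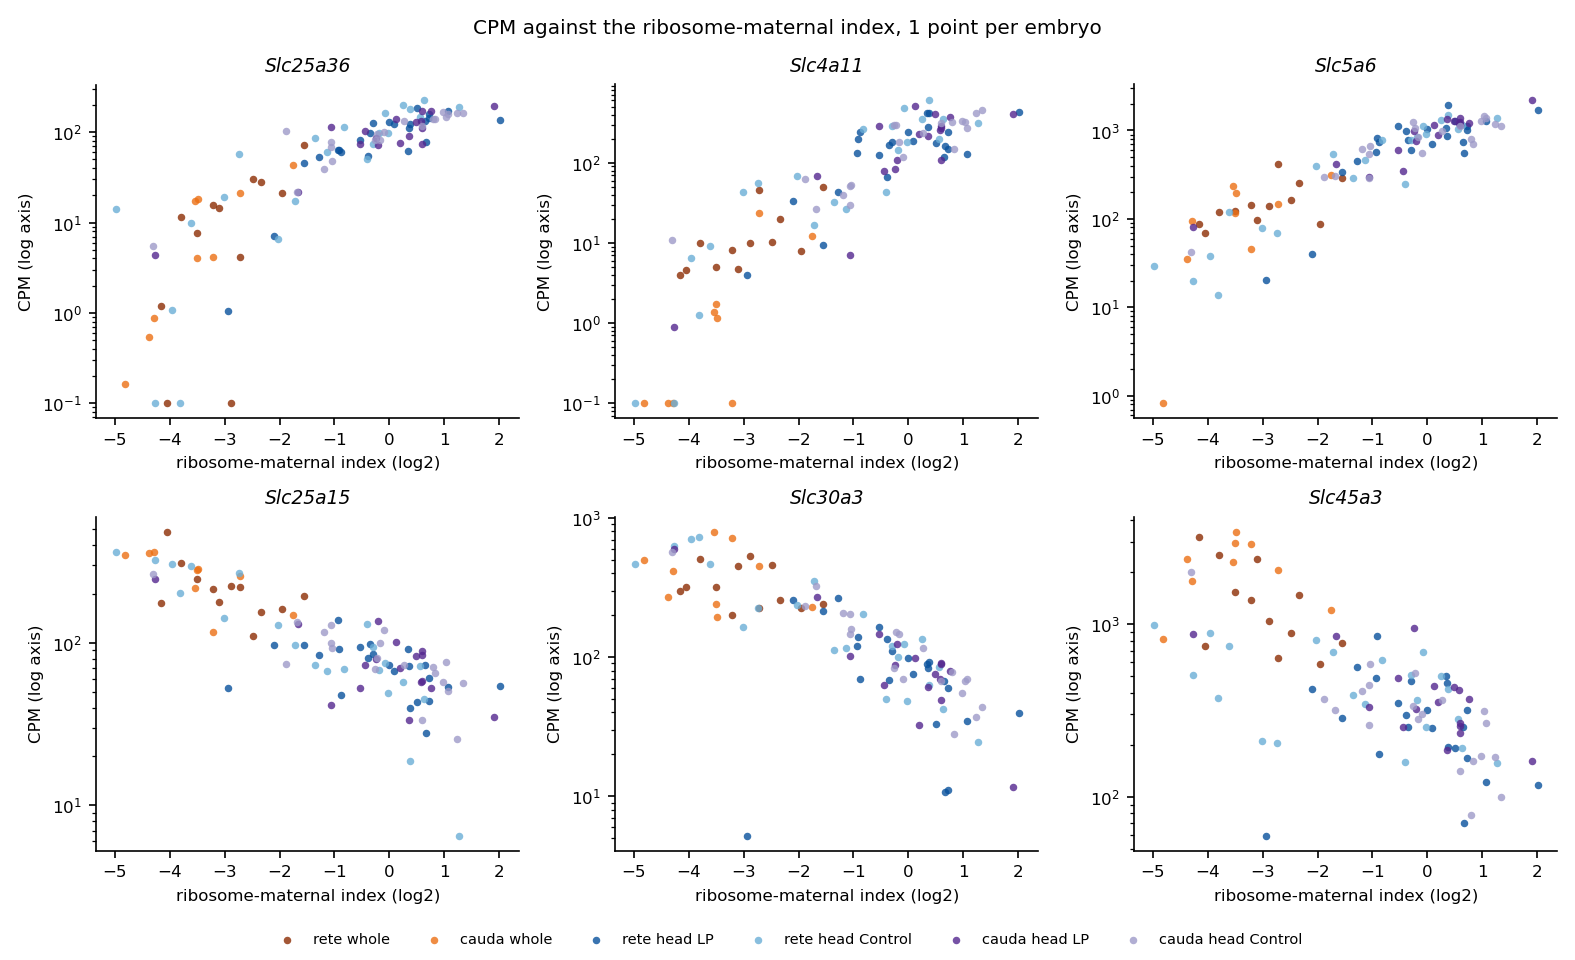
CPM on a log axis against the ribosome-maternal index for 6 solute carrier genes, 1 point per embryo, coloured by group. Slc25a36, Slc4a11 and Slc5a6 rise along the index and Slc25a15 and Slc30a3 fall, with whole-sperm embryos at the low end, and Slc45a3 is high in the whole-sperm embryos.

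Promoter windows were read for the members that moved along the index, since those share a measured pattern that the choice of genes did not use. RefSeq (GRCm38.p6) gives the 250 bases before an annotated start for 84 of the 110 genes, 107 windows in all, and the 4 windows below belong to the 2 genes with the steepest positive and the 2 with the steepest negative slopes in heads among those with 1 window in the RefSeq promoter table that lies wholly before the gene's listed start. They lie at chr9:97111042-97111291 on the minus strand for Slc25a36, chr19:28834885-28835134 on the plus strand for Slc1a1, chr4:119108495-119108744 on the plus strand for Slc2a1 and chr16:17928220-17928469 on the minus strand for Slc25a1. Each is printed from 5′ to 3′, and capitals mark matches on either strand to CACGTG (known as an E-box), to CCAAT (the box of that name), to GGGCGG (a GC box), to TATAAA (known as the core promoter box) or to CCGGAAG (known from sites of ETS factors).
Slc25a36: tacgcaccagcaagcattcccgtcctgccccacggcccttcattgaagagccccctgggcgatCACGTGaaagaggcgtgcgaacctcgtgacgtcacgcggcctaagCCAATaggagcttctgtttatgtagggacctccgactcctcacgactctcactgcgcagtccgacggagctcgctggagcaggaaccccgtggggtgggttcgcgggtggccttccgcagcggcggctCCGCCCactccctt
Slc1a1: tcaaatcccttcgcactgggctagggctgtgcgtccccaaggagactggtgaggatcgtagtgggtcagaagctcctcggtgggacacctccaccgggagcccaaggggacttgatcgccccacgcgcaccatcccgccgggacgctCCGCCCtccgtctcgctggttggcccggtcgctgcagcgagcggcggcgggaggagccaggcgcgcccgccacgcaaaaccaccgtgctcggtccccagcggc
Slc2a1: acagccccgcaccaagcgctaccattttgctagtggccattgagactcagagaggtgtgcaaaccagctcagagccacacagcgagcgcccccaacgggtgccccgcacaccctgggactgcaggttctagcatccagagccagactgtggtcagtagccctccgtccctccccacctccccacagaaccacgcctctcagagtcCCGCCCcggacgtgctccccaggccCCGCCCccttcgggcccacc
Slc25a1: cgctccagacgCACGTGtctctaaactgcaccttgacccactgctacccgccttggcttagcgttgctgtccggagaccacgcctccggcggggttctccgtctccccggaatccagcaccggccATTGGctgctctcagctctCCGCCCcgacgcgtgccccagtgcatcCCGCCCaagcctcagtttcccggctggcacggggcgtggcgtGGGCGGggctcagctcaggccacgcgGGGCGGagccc
The Slc25a36 window held an E-box, CCAAT and 1 GC box, and the Slc1a1 window held 1 GC box. Slc2a1 held 2 GC boxes, and Slc25a1 held an E-box, CCAAT and 4 GC boxes. Over all member windows CACGTG was found in 16.8%, against 8.84% of 7775 windows of genes in the table and 6.02% of all 32851 windows. It was in 19.5% of 41 windows of genes that rose along the index and in 17.65% of 34 windows of genes that fell. These 41 windows came from 34 genes and the 34 windows from 26 genes. TATAAA was in 2.44% of the windows of genes that rose (1 window) and 11.8% of those that fell (4 windows). It was in 8.41% of member windows, 6.35% of windows of genes in the table and 12.4% of all windows. CCGGAAG was in 17.1% of windows of genes that rose (7 windows) and 5.88% of those that fell (2 windows). Its share was 12.15% of member windows, 15.02% of windows of genes in the table and 6.91% of all windows. GGGCGG was in 63.55% of member windows, 57.8% of windows of genes in the table and 32.7% of all windows, and CCAAT in 33.6%, 36.6% and 33.85%. The median GC content was 60% in member windows and in those of genes in the table and 52.4% in all windows. A match is a description of letters, and no test was made of these shares.

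The 2 sperm sources gave few differences. Between rete and cauda heads from LP males no solute carrier gene passed, against 0.076% of all genes, and between rete and cauda heads from Control males none passed, against 0.038% of all genes. At an unadjusted p under 0.05 by limma there were 11 and 25 of 110 genes, beside 608 and 1745 of 7894. Between rete and cauda whole sperm none of 109 passed, against 0% of all genes, with 13 genes at an unadjusted p under 0.05 beside 662 of 7782. The largest whole-sperm differences were 2.25 ± 0.74 for Slc19a3 (adjusted p = 0.527), with a median of 146 CPM in rete and 72.5 CPM in cauda embryos, and 2.11 ± 0.61 for Slc4a11 (adjusted p = 0.524), with 9.03 CPM in rete and 1.16 CPM in cauda embryos. In LP heads the smallest p of the ion class belonged to Slc4a7, a sodium bicarbonate carrier, with medians of 0.985 CPM in rete and 9.60 CPM in cauda embryos (−1.79 ± 0.51, adjusted p = 0.217). In Control heads Slc39a4 had 38.7 CPM in rete and 129 CPM in cauda embryos (−1.42 ± 0.53, adjusted p = 0.167), and Slc1a1 had 138 CPM in rete and 184 CPM in cauda embryos (−1.32 ± 0.49, adjusted p = 0.167). Slc25a3 had 186 CPM in rete and 383 CPM in cauda Control heads (−1.16 ± 0.39, adjusted p = 0.167). In LP heads the smallest p-values of the amino acid class and of other substrates belonged to Slc16a10, a carrier of aromatic amino acids (−0.57 ± 0.22, adjusted p = 0.451), and Slc23a2, an ascorbate importer (−0.71 ± 0.31, adjusted p = 0.553). The intervals are wide, and these p-values do not show that the sources are alike.

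Paternal diet was compared within each source. In rete heads 1 gene, Slc35a5 of the nucleotide sugar family, passed and was lower with LP, against 1.49% of all genes (0.393% higher and 1.1% lower). It ran from 0.1 to 43.8 CPM with a median of 25.2 in rete LP heads, against 14.9 to 171 with a median of 39.4 in rete Control heads, and the groups overlapped. The difference was −1.05 ± 0.29 (adjusted p = 0.0428 by limma), and in cauda heads it was −0.45 ± 0.32 (adjusted p = 0.999), with medians of 22.6 CPM in LP and 35.2 CPM in Control embryos. The call was lost with a pseudocount of 0.1 (−1.18, adjusted p = 0.0579), with only the 2 rete groups in the fit (−1.05, adjusted p = 0.120) and with the index as a covariate (−0.73, adjusted p = 0.260). At an unadjusted p under 0.05, 27 of 110 genes and 1809 of 7894 genes differed in rete heads. The median index was −0.01 in rete LP heads and −0.98 in rete Control heads, and with the index as a covariate no solute carrier gene passed for diet in rete heads. The share of all genes in that fit is not given here, so the step from 1 gene to none is not read as a result. The part of the index in the diet differences was not tested.

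The rete count depended on 1 embryo, and also on other settings that are given below. Without rete LP head embryo 11, which had 4788734 reads but 6095 detected genes, 9 genes were higher and 2 lower with LP, 11 of 110, while 9.99% of all genes passed. The 9 were Slc34a2 (1.13 ± 0.33), Slc5a6 (1.33 ± 0.43), Slc16a6 (0.89 ± 0.29), Slc10a3 (0.84 ± 0.26), Slc25a25 (1.52 ± 0.38), Slc25a44 (1.04 ± 0.33), Slc25a38 (0.80 ± 0.25), Slc35e3 (0.66 ± 0.22) and the zinc exporter Slc30a6 (1.504 ± 0.51), and the 2 were Slc35a5 (−0.86 ± 0.26) and Slc4a1ap (−0.64 ± 0.22). Embryo 11 also had the lowest index of its group, −2.94. In rete Control heads the rank correlation of the 9 genes with the index ran from 0.661 (Slc35e3) to 0.945 (Slc5a6). It was −0.710 for Slc35a5 and −0.532 for Slc4a1ap. In rete LP heads, with embryo 11 included, it was lower for the 9 genes, from 0.239 (Slc35e3) to 0.825 (Slc25a44). There it was −0.303 for Slc35a5 and 0.040 for Slc4a1ap. No fit without this embryo held the index as a covariate, and the part of the index in these calls was not tested. With the embryo included Slc25a25 had a median of 395 CPM (15.2 to 776) in rete LP heads and 211 CPM (9.99 to 676) in rete Control heads, a difference of 1.32 ± 0.40 (adjusted p = 0.0638). Slc30a3 had 83.3 CPM (5.22 to 268) in rete LP heads and 129.7 CPM (24.5 to 729) in rete Control heads (−1.15 ± 0.37, adjusted p = 0.0753). The amino acid gene of smallest p there was Slc6a7 (−1.02 ± 0.42, adjusted p = 0.144) and the sugar gene Slc45a3, with 286 CPM in rete LP and 404 CPM in rete Control heads (−0.64 ± 0.26, adjusted p = 0.143).

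In cauda heads no solute carrier gene passed for diet, against 0% of all genes, and 2 of 110 had an unadjusted p under 0.05 by limma beside 163 of 7894. Those were Slc30a1, the zinc exporter of the cell membrane, with 72.8 CPM in LP and 39.8 CPM in Control embryos (0.85 ± 0.39, adjusted p = 0.999), and Slc48a1, with 9.15 CPM in LP and 2.94 CPM in Control embryos (1.12 ± 0.50, adjusted p = 0.999). The test of whether the diet difference depended on the source passed for no solute carrier gene, against 0.19% of all genes, with 9 of 110 at an unadjusted p under 0.05 beside 726 of 7894. Its smallest adjusted p was that of Slc45a3, with a rete-minus-cauda difference of −0.998 ± 0.39 (adjusted p = 0.457). Slc30a1 had −1.21 ± 0.53 (adjusted p = 0.494) and passed only with the index as a covariate (−1.80 ± 0.42, adjusted p = 0.0141).

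**Figure D5:**
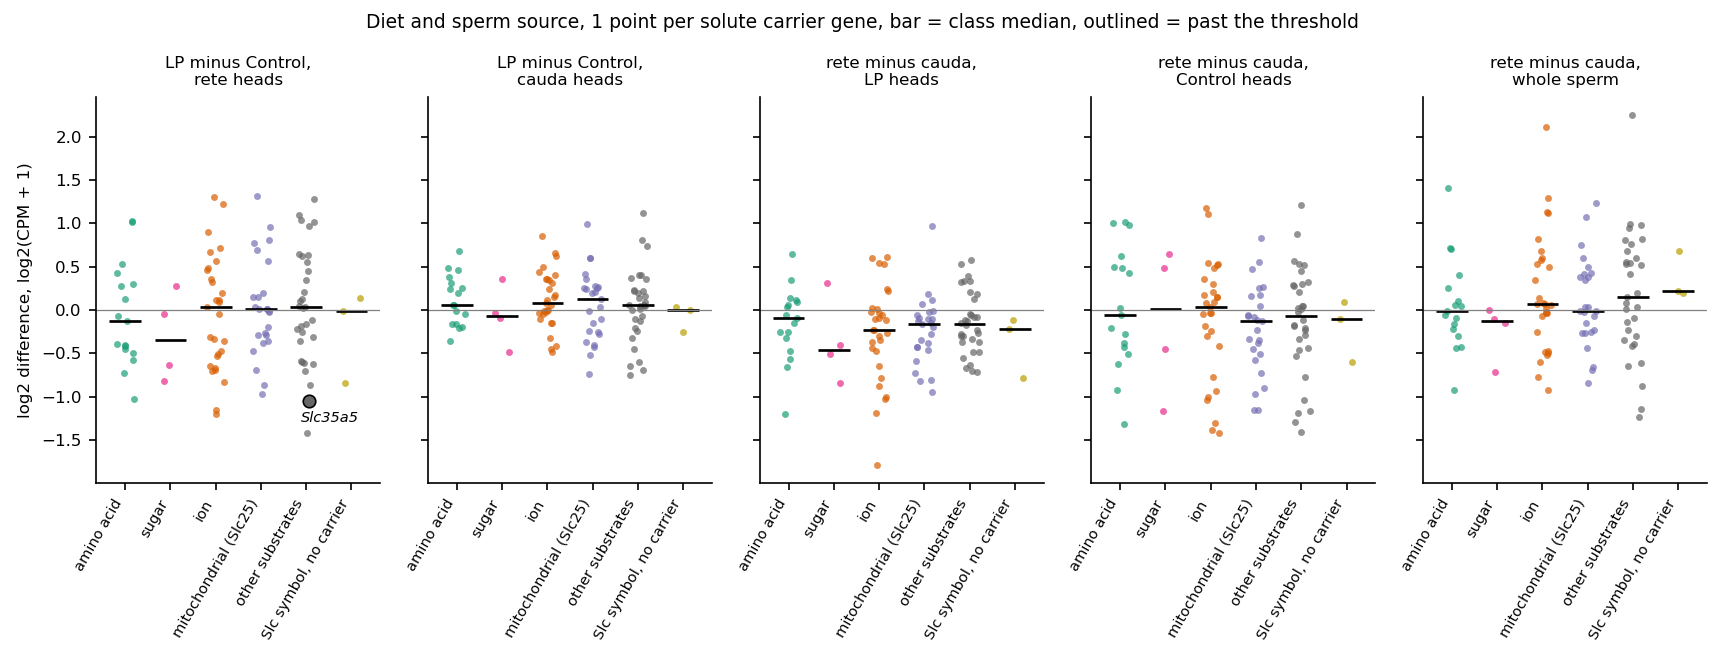
Difference on the log2(CPM + 1) scale of each solute carrier gene for LP minus Control in rete and cauda heads and for rete minus cauda in LP heads, Control heads and whole sperm, by class, with a bar at the class median and an outline for genes past the threshold. Only Slc35a5 in rete heads is outlined.

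A further 4 lists of transporters outside the Slc symbols were read the same way, as counts. They held 14 ABC transporters, 17 P-type ATPases, 14 genes of mitochondrial uptake such as the pyruvate carrier and calcium uniporter, and 17 carriers without an Slc symbol. None of their genes passed in any diet or source comparison. With cauda whole sperm 4 ABC transporters were higher and 4 lower, 4 P-type ATPases higher and 3 lower, 4 mitochondrial uptake genes higher and 5 lower, and 3 carriers higher and 6 lower, where 58.7% of all genes passed. With rete whole sperm the counts were 2 and 2, 3 and 1, 5 and 3, and 3 and 5 in the same order, where 33.6% of all genes passed. Along the index in heads 4 ABC transporters rose and 4 fell, 5 P-type ATPases rose and 4 fell, 6 mitochondrial uptake genes rose and 7 fell, and 7 carriers rose and 2 fell, where 74% of all genes did so. The median slopes were −0.06, −0.05, −0.20 and 0.12, against 0.05 for the solute carrier genes and 0.05 for all genes. For cauda whole sperm the median differences were 0.43, 0.38, 0.66 and −0.30, against 0.29 for the solute carrier genes and −0.08 for all genes.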

How the data were processed

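Single embryos were profiled with a single-cell RNA-seq and Nextera kit, per the labels' protocols. Bowtie and the mm10 build are named in the submitters' processing notes, and how reads were counted, by strand or not, and genes filtered is not given. One table was deposited by the authors, in CPM (reads scaled to a fixed total) for each gene and embryo. The unit was read from the values, whose columns sum to 92.1% to 98.1% of the full total of CPM. Zero is written as 0.1 (2.49% of values). Of low values, 79.9% to 89.1% per embryo came out as whole reads (within 0.001 reads) and the others lie on hundredths of a read, so no count test was used.

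Genes with at least 5 CPM in at least 9 embryos were tested on log2(CPM + 1) with limma 3.58.1 (R 4.3.3, trend and robust variance, two-sided, Benjamini-Hochberg over all genes). Diet, sperm source and head slopes used all 82 head embryos, whole-sperm source and slopes the 21 whole-sperm embryos, and preparation all embryos. Depth was estimated from the value of 1 read. The fit was tested on simulated data. Genes named are those past the threshold, or the 8 largest rises and falls (10 for slopes) where over 20 passed, the smallest p of a class with none, and the 3 most abundant of each class. One of the genes so named is left out of the text. The members and lists were chosen with earlier results of these data known. All 110 genes matched RefSeq by accession. Exons of 9 overlap another gene's, so their reads may be shared. Alternatives changed pseudocount, filter, scaling, covariates, embryos and block.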

Additional observations from a re-analysis of the deposited data

Results flagged for a closer look

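In cauda whole-sperm embryos (9 embryos) the highest embryo of 12 of the 57 named genes lay far from the others, with a gap to the next whose share of the group's range exceeded Dixon's 95% critical value. For normally distributed values chance gives such a gap in about 1 in 20 groups. The CPM were used here without a log, and all 12 gaps lay at the high end. Genes of 1 embryo are also not independent, so the 12 of 57 cannot be set against that rate. In 8 of the 12 genes it was embryo 3, whose ribosome-maternal index of −1.76 was the highest of its group. Embryo 3 had 28.9 CPM of the zinc exporter Slc30a6, against 5.49 CPM in the next embryo (gap 0.813), and 438 CPM of Slc25a25, against 123 CPM (0.722). The gap was 0.646 for the phosphate carrier Slc25a3 (237 and 109.8 CPM), 0.541 for Slc5a3 (76.3 and 35.1 CPM), 0.518 for Slc25a36 (43.4 and 21.02 CPM), 0.506 for Slc16a6 (442 and 225 CPM), 0.501 for Slc19a3 (323 and 161 CPM) and 0.498 for Slc34a2 (1392 and 707 CPM).

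Embryo 6 was highest for Slc33a1 (9.13 and 3.47 CPM, gap 0.627) and Slc4a7 (39.8 and 17.4 CPM, gap 0.582). Embryo 5, the one low in detected genes, was highest for Slc48a1 (64.7 and 35.2 CPM, gap 0.526) and Slc25a5 (267 and 146 CPM, gap 0.513). The other groups have more than 10 embryos and were not examined in this way.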

How the results depend on the processing

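The 1 diet call in rete heads became 0 with a pseudocount of 0.1, with only the 2 groups in the fit and with the index as a covariate, 3 (1 higher and 2 lower) with median-of-ratios scaling, 5 (2 and 3) with detected genes as a covariate, and 11 (9 and 2) without embryos low in detected genes or without rete LP head embryo 11, an alternative chosen after seeing the data. The dependence of diet on source gave 1 gene with the index as a covariate. With that covariate the preparation counts were 11 for cauda and 12 for rete sperm, with 8 of 67 and 7 of 38 calls kept, and Slc5a6 turned to 0.0908 for cauda sperm. The dependence of preparation on source gave 2 genes with a pseudocount of 0.1. The 23 slopes in whole-sperm embryos became 9 with detected genes as a covariate and 3 with the maternal list alone. Among alternatives, the share of all genes is given above only for preparation with depth or the index, and for diet without embryo 11. The other counts are therefore not read as particular to solute carrier genes. Slc29a2 lost its whole-sperm slope without cauda whole-sperm embryo 5 (adjusted p = 0.0872).

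Embryo numbers did not pair the embryos: correlations of same-numbered embryos had medians from −0.16 to 0.06 between groups. With the replicate block 67 and 38 genes passed for preparation, Slc19a3 (3.82, adjusted p = 0.0409) and Slc4a11 (3.67, adjusted p = 0.0422) passed for its dependence on source, a count of 2, and the calls were lost of Slc25a15 (−0.34, adjusted p = 0.183), Slc20a1 (−0.39, adjusted p = 0.194) and Slc29a2 (adjusted p = 0.0897) for whole-sperm slopes and of Slc29a2 (−1.76, adjusted p = 0.0507) for rete sperm. Depth as a covariate, added after seeing the data, moved the higher and lower calls to 40 and 29 for cauda and 30 and 10 for rete sperm. Of 1198 alternative values of the named genes, 1123 kept direction and side of the threshold, 60 lost it, 14 gained it and 1 turned. Other comparisons kept their counts within 1.5 times in every alternative run. In genes near 1 CPM a value rests on few reads.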
